A study of Homo sapiens with 36 samples.

Results

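The Mir-10 family guide strands are the mature miRNAs whose name in the deposited table begins with Hsa-Mir-10- and carries no asterisk, since an asterisk marks the passenger strand in the MirGeneDB nomenclature. 4 of the 135 mature miRNAs met this rule: Hsa-Mir-10-P1b-v1_5p, Hsa-Mir-10-P1c-v1_5p, Hsa-Mir-10-P2b_5p and Hsa-Mir-10-P3b_5p, named P1b, P1c, P2b and P3b from here on. The table also holds 1 passenger strand of the family, Hsa-Mir-10-P1c-v1_3p*. The rule reads names only. The family was taken up because it holds the most abundant miRNA on AGO2, so the rank of that miRNA is given as a description.

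Small RNA was sequenced from HEK293T cells, an established human embryonic kidney line that is easily transfected. The cells carried Flag/HA-tagged AGO2 as WT-AGO2 or as 1 of 4 variants (F182del, N359H, G604R, D619N), or an empty Flag/HA vector, and in all 6 cases also pEGFP-C1, a plasmid for green fluorescent protein that marks transfected cells. Libraries were made from the cleared lysate (input) and from the immunoprecipitate of the same lysate on anti-HA beads (IP), with 3 replicates of each, which gave 36 libraries in 12 conditions. The endogenous, untagged AGO2 remained in all cells, so that the input holds the miRNAs of both forms and of untransfected cells, and the model is a transient transfection and not a line that carries the variant in its genome. The sources used here do not say whether replicates came from separate cultures, so p-values measure the spread between these libraries, which may be technical.

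miRNAs are cut from hairpin precursors as a duplex of a guide and a passenger strand. An Argonaute protein such as AGO2 keeps the guide, discards the passenger, and finds target RNAs through the bases that follow the first base of the guide, the seed. The Mir-10 family is an old animal family that includes miR-10, miR-99, miR-100 and miR-125. Its miR-10 genes lie in the HOX clusters, which pattern the body axis, and its miR-99, miR-100 and miR-125 genes lie in clusters with let-7, a miRNA that rises as cells differentiate.

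The guides of the family were read from RefSeq sequences (GRCh38.p14) for 7 of the 8 gene symbols searched, all but MIR10B, and gave 6 distinct guides. They are printed here because the family is split by its seed, so that related guides need not share targets. No source used here pairs the MirGeneDB names of the 4 guides with these gene symbols, so no sequence is assigned to P1b, P1c, P2b or P3b. Capitals mark the seed, bases 2 to 8 from the 5′ end.
hsa-miR-10a-5p: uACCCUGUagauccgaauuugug
hsa-miR-99a-5p: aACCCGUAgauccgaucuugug
hsa-miR-99b-5p: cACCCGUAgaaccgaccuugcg
hsa-miR-100-5p: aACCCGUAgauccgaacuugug
hsa-miR-125a-5p: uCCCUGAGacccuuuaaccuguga
hsa-miR-125b-5p: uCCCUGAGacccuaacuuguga

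The 6 guides fell into 3 seeds. hsa-miR-99a-5p, hsa-miR-99b-5p and hsa-miR-100-5p shared ACCCGUA, which 3 of the 2370 mature miRNA names of the RefSeq table carried. hsa-miR-125a-5p and hsa-miR-125b-5p shared CCCUGAG, which 3 names of the table carried. hsa-miR-10a-5p was the 1 name of the table with ACCCUGU. The guide of MIR10B could not be read, so its seed was not compared.

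In GRCh38, the guide of MIR10A lies at chr17:48579904-48579926 (minus strand), within an intron of HOXB3 and over an annotated exon of HOXB4 on that strand. MIR100 (guide at chr11:122152275-122152296) and MIR125B1 (guide at chr11:122099809-122099830) lie, also on the minus strand, within introns of the long non-coding RNA gene MIR100HG, on the same strand, and MIRLET7A2 lies near them. MIR99A (guide at chr21:16539101-16539122) and MIR125B2 (guide at chr21:16590253-16590274), which gives the same guide as MIR125B1, lie on the plus strand in introns of MIR99AHG. MIR99B (guide at chr19:51692618-51692639) and MIR125A (guide at chr19:51693268-51693291) lie on the plus strand in an intron of SPACA6 and over an exon of the antisense gene SPACA6P-AS, with MIRLET7E near them.

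The values are RPM, reads scaled to the total reads of a library. The total inferred from the values was 16636 to 754009 reads for the 15 IP libraries of AGO2, 18032 to 48080 for the empty vector IP, and 575821 to 4162450 for 15 of the 18 input libraries. 3 inputs, replicate 1 of N359H, G604R and D619N, stood apart. They held 148205, 9395 and 17118 reads and 13576, 45024 and 45040 RPM of mature miRNA, while the other 15 inputs had 2228 to 5467 RPM, and the IP libraries of AGO2 had 18351 to 116901 RPM. In RPM of mature miRNA, G604R and D619N thus lay in the range of the IP libraries and N359H between both ranges. In total reads, N359H and D619N lay in the range of the IP libraries of AGO2 and G604R below it. The labels do not settle whether libraries were mixed up. Fold changes and shares of P1c, P1b and the family that rest on those inputs are therefore also given without them. The empty vector IP libraries held 171 to 197 mature miRNA reads each. None of the 6 marker miRNA names of other tissues searched (among them those of liver, brain, blood and muscle) was listed in the table.

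P1c was the main miRNA of these cells and of AGO2. It ranked first of the 124 distinct mature miRNAs in 32 of the 36 libraries, and had rank 2 or 3 in the empty vector IP libraries and rank 3 in D619N IP replicate 3. P1b ranked between 2 and 6. Both together made up 94.6% to 100% of the reads of the family in every library, so that P2b and P3b added little to its total. In WT-AGO2 IP, P1c stood at 18328, 11577 and 3849 RPM and P1b at 8074, 6109 and 1658 RPM in replicates 1, 2 and 3. The spread between these replicates was therefore wide for both, with replicate 3 the lowest, and it followed the mature miRNA total of the libraries, which was 106978, 60515 and 21478 RPM.

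Relative to that total, the replicates lay close together. P1c took 17.1%, 19.1% and 17.9% of the mature miRNA reads of WT-AGO2 IP, and P1b took 7.55%, 10.1% and 7.72%. In the WT input, P1c took 24.1%, 23.7% and 22.1%, and P1b took 12.2%, 13.2% and 9.97%. P2b was a minor member, at 450, 136 and 164 RPM in WT-AGO2 IP (126, 14 and 45 reads) and 31.6, 10.2 and 22.7 RPM in the WT input. P3b was near the limit of detection: it was above 0 in 8 of the 18 IP and 4 of the 18 input libraries, with at most 18 reads, and WT-AGO2 IP held 10, 4 and 0 reads of it.

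**Figure D1:**
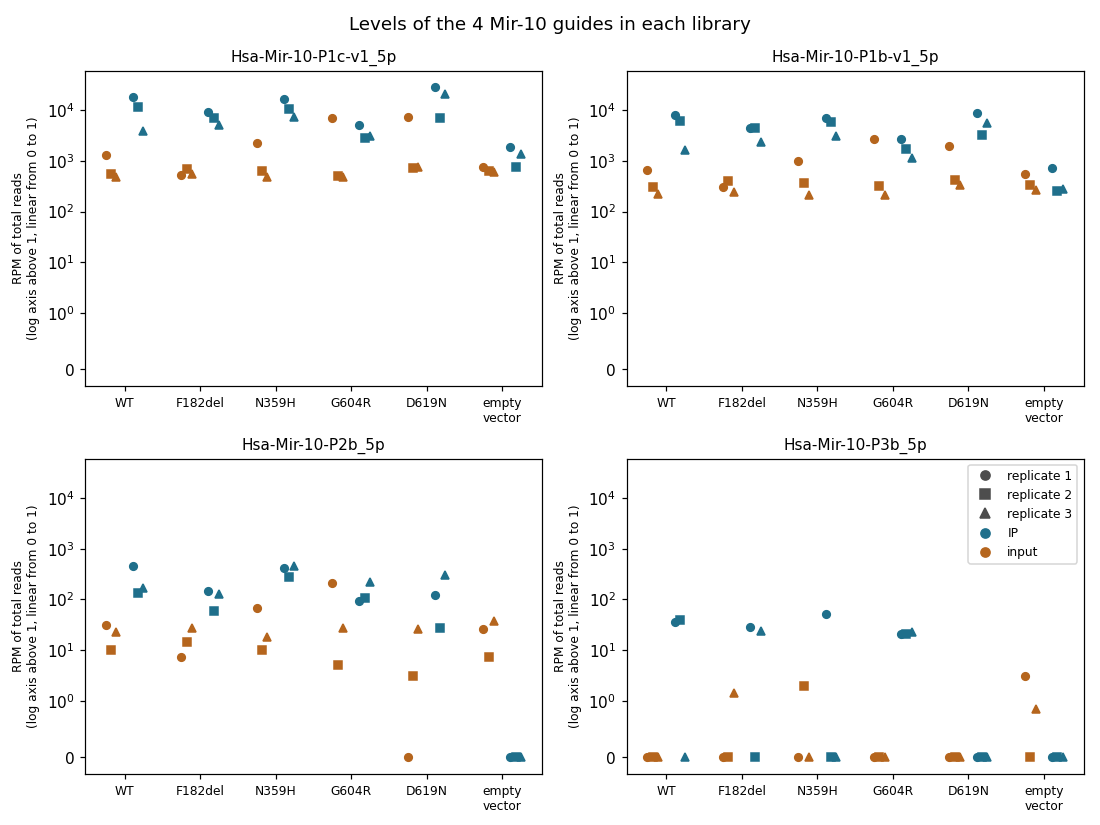
RPM of the 4 Mir-10 guides in each of the 36 libraries (y axis logarithmic above 1 RPM and linear from 0 to 1; blue IP, brown input; the marker gives the replicate number). P1c and P1b lie highest of the 4 guides in every library, P2b is listed at 0 in the 3 empty vector IP libraries, and P3b is listed at 0 in most libraries.

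The empty vector IP shows how much of the family stayed on the beads without tagged AGO2. P1c stood there at 1886, 749 and 1392 RPM, and P1b at 721, 250 and 286 RPM, all below the lowest WT-AGO2 IP library. The mean of P1c was 8.38-fold and that of P1b 12.6-fold higher in WT-AGO2 IP than in the empty vector IP. Without the empty vector replicate 1, the P1b ratio was 19.7. P2b was listed at 0 in all 3 empty vector libraries. Since 3 reads correspond to a mean of 112 RPM there, P2b was at least 2.23-fold higher in WT-AGO2 IP, or at least 1.34-fold without WT-AGO2 replicate 1. P3b, at a mean of 24.9 RPM in WT-AGO2 IP, was below that limit in both groups, so no fold is given.

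In the limma fit of the deposited RPM, all 4 guides were called lower in the empty vector IP. The log2 fold changes were -2.90 for P1c (standard error 0.67, adjusted p = 0.00313 from limma) and -3.54 for P1b (standard error 0.89, adjusted p = 0.00495 from limma). P2b and P3b were called as well, at adjusted p = 1.88e-05 and 0.0484 from limma, and leaving out any 1 empty vector library ended the call of P3b. 79.3% of the 121 miRNAs tested were called, all of them lower, and the median log2 fold change was -5.17 over all and -3.52 over the 4 guides. The fall of P1c and P1b was thus smaller than the median, which includes miRNAs listed at 0 in the empty vector, whose values depend on the pseudocount. When the libraries were instead scaled to their mature miRNA reads, P1c differed by 0.16 and P1b by -0.49, and only P2b was still called. In share of mature miRNA reads, the family took 26.9%, 28.1% and 23.9% in the empty vector IP (Wilson 95% intervals of 20.8 to 33.9%, 21.9 to 35.2% and 18.4 to 30.3%) and 25.1%, 29.5% and 26.4% in WT-AGO2 IP (intervals within 24.6 to 30.7%). These groups overlapped, and the mean share differed by -0.76 percentage points (exact permutation test, two-sided, p = 0.8, n = 3 and 3, adjusted p = 0.853 over 16 comparisons). Intervals and limits cover counting error only. Each library pools the cells of a lysate, so the level in WT-AGO2 IP does not tell the number of transfected cells from the miRNA bound per cell.

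The variants were compared with WT-AGO2 to ask whether they bind other miRNAs. For the Mir-10 guides, no member was called in any variant IP. In F182del 6.02% of 133 miRNAs tested were called, in N359H 0% of 123, in G604R 4.88% of 123 and in D619N 14.6% of 123. A call needed a change of more than 1 in either direction on the log2 scale, with an adjusted p under 0.05 from limma after median-of-ratios scaling. At an unadjusted p below 0.05, N359H had 6 of its 123. With 0 of 4 members called in each, the count of members cannot be told from these backgrounds.

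For P1c the intervals were narrow enough to bound a change. F182del IP had P1c at 9377, 7006 and 5093 RPM, N359H IP at 16519, 10390 and 7381 RPM, G604R IP at 5182, 2824 and 3097 RPM, and D619N IP at 28867, 7139 and 21219 RPM. F182del and N359H lay within the range of WT-AGO2. G604R was lower than WT-AGO2 in each same-numbered library and overlapped with its range, and D619N reached above it in replicates 1 and 3. After scaling, the log2 fold change of P1c was 0.37 in F182del (95% interval -0.32 to 1.07), 0.04 in N359H (-0.48 to 0.56), -0.28 in G604R (-0.78 to 0.23) and 0.26 in D619N (-0.29 to 0.80). All 4 estimates lay below a change of 2-fold, and only the interval of F182del reached above it.

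P1b had the sign of P1c in 3 of the variants. Its log2 fold change was 0.53 in F182del (95% interval -0.10 to 1.16), 0.06 in N359H (-0.47 to 0.59), -0.20 in G604R (-0.82 to 0.42) and -0.23 in D619N (-1.01 to 0.54), where P1c had the opposite sign. In RPM as deposited, without scaling, signs changed: P1c and P1b were at -0.43 and -0.27 in F182del, 0.21 and 0.23 in N359H, -1.39 and -1.32 in G604R, and 0.81 and 0.32 in D619N, so that both had the same sign in D619N too. None of these was called (the lowest adjusted p = 0.239 from limma, for P1b in G604R). In G604R the mature miRNA total was 27023, 18351 and 19962 RPM, against 106978, 60515 and 21478 RPM in WT-AGO2.

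P2b in D619N IP was the largest difference of a guide with reads above the limit of 3 in most libraries. It stood at 122, 27.3 and 301 RPM there, which is 7, 2 and 5 reads. In share of mature miRNA reads these were 0.105%, 0.0783% and 0.258%, against 0.421%, 0.225% and 0.765% in WT-AGO2 IP, so that D619N was lower in each same-numbered library while the groups overlapped. The log2 fold change was -1.65 (95% interval -3.06 to -0.23, adjusted p = 0.123 from limma) and missed the threshold. Without D619N replicate 3 or without WT-AGO2 replicate 2 it passed it (adjusted p = 0.0479 and 0.0489 from limma), on 2 to 7 reads per D619N library. In the other variants P2b had log2 fold changes of -0.25 (F182del), 0.61 (N359H) and 0.37 (G604R). P3b was listed at 0 in all 3 D619N IP libraries, where 3 reads correspond to a mean of 91.2 RPM, and WT-AGO2 IP held a mean of 24.9 RPM, so a difference was not detectable at this depth.

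The inputs asked whether the variants alter the miRNAs of the cell itself. In the inputs, 3 of the 4 guides passed the filter on low values, all but P3b, and none was called. The background was 0% in each comparison, with 114 miRNAs tested in F182del, 106 in N359H and in G604R, and 105 in D619N and with the empty vector. At an unadjusted p below 0.05 limma had 9, 2, 11, 4 and 3 miRNAs. P1c differed from the WT input by -0.20 (F182del), -0.39 (N359H), -0.44 (G604R), -0.35 (D619N) and 0.11 (empty vector) on the log2 scale. Without the replicate 1 inputs that stood apart, P1c was at -0.24 in N359H, -0.27 in G604R and -0.10 in D619N. P1b differed by -0.15 (F182del), -0.44 (N359H), -0.51 (G604R), -0.64 (D619N) and 0.23 (empty vector), and without those libraries by -0.24 in N359H, -0.20 in G604R and -0.07 in D619N. P2b was at 0, 3.14 and 26.3 RPM in the D619N input (0, 2 and 24 reads) and had a log2 fold change of -2.42 (95% interval -4.76 to -0.07, adjusted p = 0.862 from limma), or -1.10 without replicate 1.

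**Figure D2:**
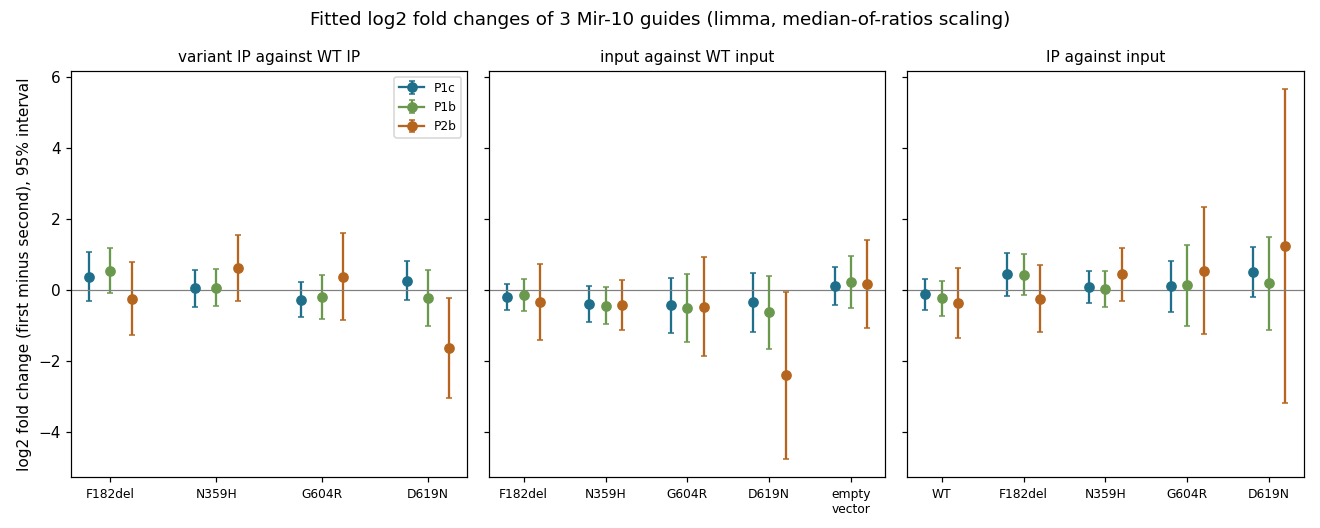
Fitted log2 fold changes of P1c, P1b and P2b with 95% intervals, for each variant IP against WT-AGO2 IP, each input against the WT input, and each IP against its input (limma after median-of-ratios scaling). The intervals of P1c and P1b include 0 in all 14 comparisons, and those of P2b lie wholly below 0 for D619N in IP and in the input.

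IP and input of one lysate were compared to ask which miRNAs the tagged AGO2 takes up relative to the rest. In RPM, P1c stood in IP at 13.9, 21.4 and 7.82 times its input in the 3 WT lysates, and all mature miRNAs together at 19.6, 26.5 and 9.64 times. P1c was thus above its input in each lysate, by less than the total in each (log2 fold change of 3.73 in RPM as deposited, adjusted p = 0.000196 from limma). In the empty vector, P1c was at 2.48, 1.16 and 2.29 times its input and the total at 3.40, 1.19 and 2.70 times. In G604R replicate 1, the lysate whose input held 9395 reads, P1c was at 0.738 times its input and the total at 0.600 times.

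After median-of-ratios scaling, which sets the typical miRNA to no change, P1c had a log2 fold change over input of -0.13 in WT-AGO2 (95% interval -0.56 to 0.31), 0.44 in F182del, 0.07 in N359H, 0.09 in G604R and 0.51 in D619N. P1b was at -0.25, 0.43, 0.02, 0.13 and 0.19 in the same order. P2b was at -0.37, -0.25, 0.43, 0.54 and 1.23. Several of these signs rested on the replicate 1 inputs that stood apart. Without them P1c was at -0.05 in N359H, -0.27 in G604R and 0.24 in D619N, P1b at -0.15, -0.38 and -0.39, and P2b at 0.42, 0.28 and -0.76. With all libraries, the intervals of these 3 guides included 0 in all 5 AGO2 forms.

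The background of calls for IP against input was 11.9% of 126 in WT-AGO2, 23.5% of 132 in F182del, 11.7% of 120 in N359H, 8.57% of 105 in G604R and 17.5% of 103 in D619N. P3b in G604R was the 1 member called (adjusted p = 0.00530 from limma). It was present in G604R IP at 20.8, 21.0 and 22.2 RPM, from 2, 2 and 4 reads, and listed at 0 in the 3 inputs. Since 3 reads correspond to a mean of 109 RPM in those inputs, no fold is given. IP and input share a lysate by design, and with the replicate block (the lysate as a term of the fit) this call was lost (adjusted p = 0.0714 from limma). Without G604R input replicate 1 it remained (adjusted p = 0.0294 from limma). P3b passed the filter through the IP libraries only, and inputs listed at 0 have no spread. The call therefore cannot show whether P3b was higher in IP than in the input.

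The interaction of fraction and variant, which compares IP over input between a variant and WT-AGO2, called 0 of the 4 guides in each variant. The background was 0.741% of 135 miRNAs in F182del, 0% of 130 in N359H (5 at an unadjusted p below 0.05), 1.54% of 130 in G604R and 3.94% of 127 in D619N. P1c had interactions of 0.52 in F182del (95% interval -0.17 to 1.21), 0.17 in N359H (-0.48 to 0.83), 0.11 in G604R (-0.67 to 0.89) and 0.57 in D619N (-0.14 to 1.28). Without replicate 1 of both fractions and both AGO2 forms, it was at -0.02 in N359H, -0.19 in G604R and 0.19 in D619N, and 0 of the guides were called.

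The let-7 guides, whose genes neighbour several of this family, gave a setting for these counts. Of 10 let-7 guides tested, 0 were called in each of the 4 variant IPs and 3 were lower in the empty vector IP. Guides with identical values were not merged in these counts, so 1 set of reads can count more than once. In WT-AGO2 IP against its input, 1 of 10 was higher and 3 were lower, with a median log2 fold change of -0.61, against -0.19 over the 4 Mir-10 guides and 0.28 over all 126 miRNAs. In F182del and N359H, 3 let-7 guides were lower in IP than in the input (of 8 and 10 tested), in G604R 0 of 7, and in D619N 1 of 9 was higher.

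The share of the whole family among mature miRNA reads differed between fractions in WT-AGO2. It was 36.9%, 37.4% and 33.1% in the WT input and 25.1%, 29.5% and 26.4% in WT-AGO2 IP, lower in IP in each lysate, with no overlap. The difference of means was -8.77 percentage points (two-sided exact permutation test, p = 0.1, which is the lowest that 3 against 3 allows, n = 3 and 3, adjusted p = 0.533 over 16 comparisons). This test ignores that IP and input share a lysate. The paired exact test over sign changes gave p = 0.25, the lowest that 3 pairs allow. The empty vector, without tagged AGO2, showed a gap in the same direction, from 46.8%, 33.2% and 34.99% in its input to 26.9%, 28.1% and 23.9% in IP, a difference of -12.1 percentage points without overlap (exact permutation test, p = 0.1, n = 3 and 3, adjusted p = 0.533). The paired exact test over sign changes gave p = 0.25 here too. In F182del the fractions overlapped, at 30.8%, 38.4% and 31.3% in the input and 34.2%, 37.3% and 32.4% in IP. The IP share of F182del lay above that of WT-AGO2 without overlap, at 34.6% ± 2.48 against 27.0% ± 2.25 (SD, n = 3 each), by 7.62 percentage points (exact permutation test, p = 0.1, adjusted p = 0.533). With 3 libraries a group, no p below 0.1 can be reached.

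P1c and P1b both contributed to the F182del difference. P1c took 22.9%, 22.6% and 21.8% of F182del IP, above all WT-AGO2 IP libraries, and P1b took 10.8%, 14.5% and 10.02%, which overlapped with WT-AGO2 by 1 library. The higher P1c share was not particular to F182del. The empty vector IP, at 19.4%, 21.1% and 19.8%, also lay above all WT-AGO2 IP libraries. D619N IP, at 24.7%, 20.5% and 18.2%, was above WT-AGO2 in each same-numbered library, with overlap. N359H and G604R had lower means than WT-AGO2, with overlap. The change from input to IP was 3.37, -1.08 and 1.11 percentage points in the F182del lysates and -11.8, -7.87 and -6.68 in the WT lysates. The test of this difference between F182del and WT-AGO2, added after the data were seen, gave 9.90 percentage points (exact permutation test, p = 0.1, n = 3 and 3, adjusted p = 0.5 over 5 comparisons).

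In the remaining variants, the share in IP overlapped with WT-AGO2: 29.3%, 27.0% and 23.9% in N359H, 29.5%, 25.6% and 22.4% in G604R, and 32.2%, 29.9% and 23.3% in D619N. Their inputs spread widely, at 24.1%, 36.5% and 29.7% in N359H, 22.2%, 37.2% and 31.3% in G604R, and 20.9%, 38.6% and 32.9% in D619N, and the low value in each was the replicate 1 that stood apart. With these libraries the mean input share was 30.1% ± 6.23, 30.3% ± 7.57 and 30.8% ± 9.03 (SD, n = 3). Without them it was 33.1% ± 4.85, 34.3% ± 4.17 and 35.7% ± 3.99 (SD, n = 2). Outside F182del and with the empty vector included, IP was below the input of its lysate in 12 of 15 lysates. Leaving out the lysates of the 3 inputs that stood apart, a choice made after the data were seen, removed exactly those with IP above input. IP was then lower in 12 of 12, by 5.13 to 19.9 percentage points. In F182del it was below in 1 of 3. When the 12 conditions were ordered by mean share, from G604R IP (25.8%) to the empty vector input (38.3%), all 11 pairs of neighbours overlapped.

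**Figure D3:**
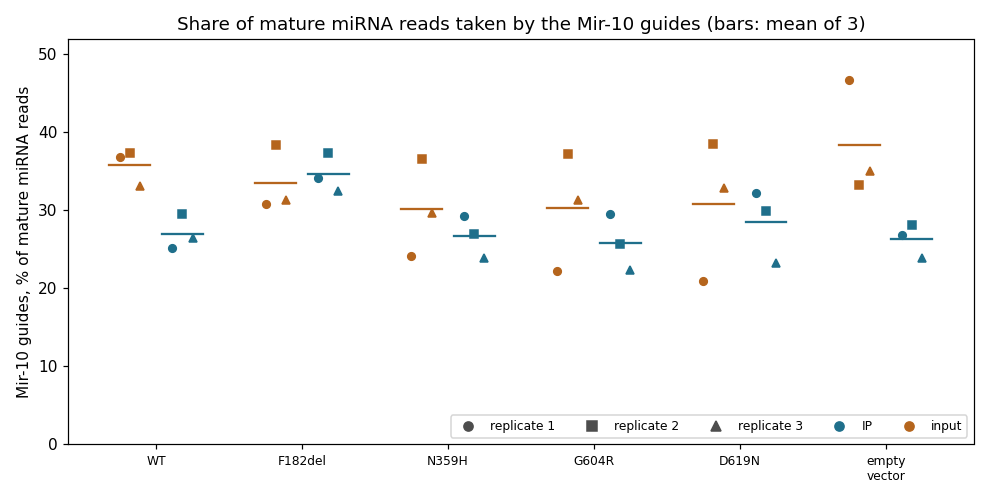
Percent of mature miRNA reads taken by the 4 Mir-10 guides in each library (y axis from 0; blue IP, brown input; bars are the mean of 3, markers the replicate number). WT-AGO2 IP (25.1% to 29.5%) lies below its input (33.1% to 37.4%), F182del IP (32.4% to 37.3%) lies in the range of its input, and the replicate 1 inputs of N359H, G604R and D619N lie at 20.9% to 24.1%.

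P1c and P1b carry the reads of the family, and their ratio does not depend on the scaling of a library. P1c had 2.27, 1.90 and 2.32 reads per read of P1b in WT-AGO2 IP and 1.97, 1.79 and 2.22 in the WT input, so that IP was higher in each of the 3 lysates while the groups overlapped. In D619N IP the ratio was 3.32, 2.20 and 3.80, above WT-AGO2 IP in each same-numbered library, with overlapping groups (mean 3.11 ± 0.82 against 2.16 ± 0.23, SD, n = 3 each, exact permutation test, p = 0.3, adjusted p = 1 over 16 comparisons). The D619N input had 3.74 in replicate 1, on 161 reads of the family, and 1.72 and 2.21 in the others. The ratio was 1.95 ± 0.34 in F182del IP, 2.14 ± 0.32 in N359H IP and 2.096 ± 0.58 in G604R IP (SD, n = 3 each), means that lay between the lowest and highest WT-AGO2 library. Single libraries went beyond that range, from 1.56 in F182del replicate 2 to 2.74 in G604R replicate 3. F182del was below WT-AGO2 in each same-numbered library, while N359H was above it in 2 and G604R in 1. In the empty vector IP the ratio was 2.62, 3 and 4.88, above all WT-AGO2 IP libraries (exact permutation test, p = 0.1, adjusted p = 0.8), on 47 or 48 reads of the family per library.

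The ratio also moved with the replicate number, which was noticed after the data were seen. Replicate 3 was above replicate 2 in all 6 inputs and in all 6 IP conditions. In the inputs, replicate 2 lay between 1.61 and 1.90 and replicate 3 between 2.21 and 2.28, without overlap. P1b took 11.4% to 14.2% of mature miRNA reads in the replicate 2 inputs and 8.87% to 10.2% in the replicate 3 inputs, while P1c overlapped, at 21.6% to 24.3% and 20.05% to 23.3%. P2b took 0.107% to 0.491% in the replicate 2 inputs and 0.766% to 1.41% in the replicate 3 inputs. What differs between replicate numbers is not given in the labels, and its part in the result was not tested.

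**Figure D4:**
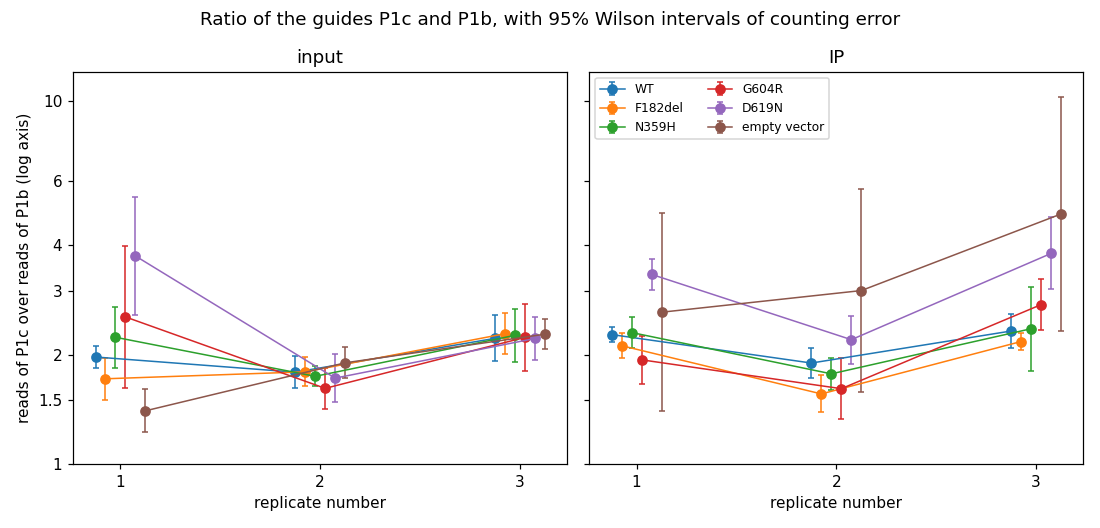
Reads of P1c per read of P1b (log axis) by replicate number in the inputs (left) and IP (right), with 95% Wilson intervals of counting error, 1 line per AGO2 form. In both panels each line lies higher at replicate 3 than at replicate 2, and the 6 inputs lie at 2.21 to 2.28 in replicate 3.

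The passenger strand of P1c was rare beside its guide, except in D619N IP. WT-AGO2 IP held 38, 5 and 8 reads of Hsa-Mir-10-P1c-v1_3p*, or 0.741, 0.419 and 0.759 reads per 100 reads of the guide. D619N IP held 29, 17 and 11 reads, or 1.76, 3.25 and 3.12 per 100, above all other libraries of the series. N359H IP had 0.388, 0.777 and 1.12 per 100, F182del IP 0.202, 0 and 0.547, G604R IP 0.401, 0 and 0, and the empty vector IP 0 in each. D619N and WT-AGO2 did not overlap (mean 2.71 ± 0.83 against 0.640 ± 0.19 per 100, SD, n = 3 each, exact permutation test, p = 0.1, adjusted p = 0.267 over 16 comparisons). The level of the passenger strand rose in D619N IP to a log2 fold change of 2.32 (95% interval 1.54 to 3.10, adjusted p = 0.00444 from limma), in which its guide was at 0.26. This call was lost in RPM as deposited (log2 fold change 2.86, adjusted p = 0.155) and in a fit of all 5 AGO2 groups (2.55, adjusted p = 0.244 from limma), with estimates no smaller than before.

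As a strand ratio, tested over the pairs with both strands present, the passenger over guide of Mir-10-P1c was not called in any variant. The log2 difference from WT-AGO2 was 2.08 in D619N (95% interval -1.15 to 5.31, adjusted p = 0.386 from limma; 4.76% of 21 ratios called), 0.17 in N359H (adjusted p = 0.913; 4.76% of 21 called), -6.81 in G604R (adjusted p = 0.326; 9.09% of 22 called) and -4.08 in F182del (adjusted p = 0.474; 0% of 23 called, 4 to 21 reads where present). The differences of G604R and F182del rest on libraries at 0, depend on the added 1 CPM, and are no measure of size. Without G604R replicate 1, the 1 library of G604R with passenger reads, its difference passed the threshold (adjusted p = 0.000701 from limma). The G604R libraries left were all at 0, so this p follows from the zeros and the added 1 CPM. It cannot show a lower passenger ratio. Relative to the input of its own lysate, the passenger strand of D619N IP had an adjusted p of 0.0466 from limma, and 0.0901 with the replicate block, with 0, 0 and 4 reads in the inputs. This call was also lost without any 1 IP library or without input replicate 1 or 2 (adjusted p = 0.0585 to 0.139 from limma), without the filter (0.0583), with a pseudocount of 0.1 RPM (0.0996) and with identical miRNAs merged (0.0513). In WT-AGO2 the corresponding values were 0.0675 and 0.0388.

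**Figure D5:**
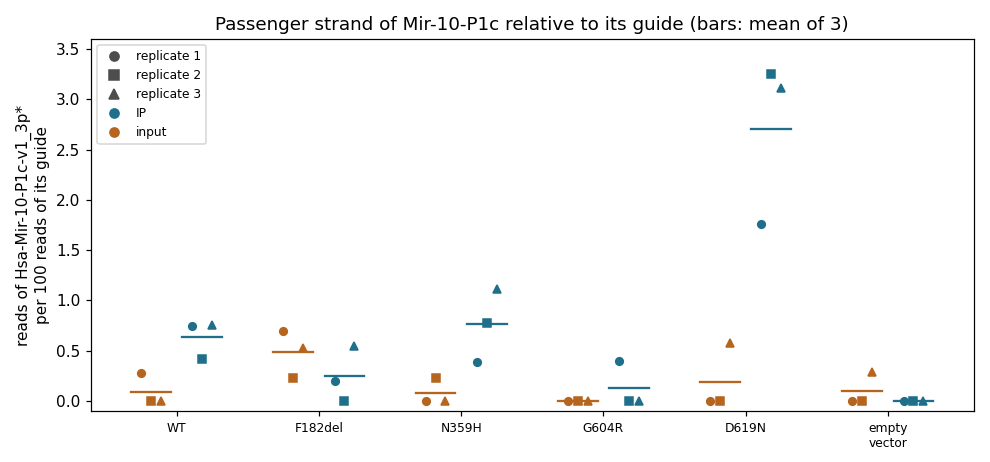
Reads of Hsa-Mir-10-P1c-v1_3p* per 100 reads of its guide in each library (linear axis; blue IP, brown input; bars are the mean of 3, markers the replicate number). The 3 D619N IP libraries lie at 1.76 to 3.25 and all other libraries at 1.12 or below.

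P1c, the guide with the most reads in WT-AGO2 IP, was compared with all other miRNAs by Pearson correlation of log2 group means over the 12 conditions, as a description only. The 3 rows outside the family most like it were Hsa-Mir-582-v1_3p* (r = 0.59), Hsa-Mir-27-P3_3p (r = 0.58) and Hsa-Mir-193-P1b_3p* (r = 0.53), at n = 12 conditions that share libraries and depth. Within the family, P1b reached r = 0.61, P2b 0.02 and P3b -0.28.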

How the data were processed

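The authors made TruSeq small RNA libraries, sequenced 36-base single-end reads, processed them with the sRNAbench web application (mean quality above a Phred threshold of 20) and annotated them with MirGeneDB 2.1. The labels name the genome build GRCh38. The deposited values are RPM of the total reads of a library for 135 mature miRNAs, 124 of them with distinct values. The terms minExpr1 and RCadj in the label of the values are not explained. All values above 0 (100%) were whole multiples (within 0.001) of the smallest step of their library. Reads were inferred from these steps and served for depth, Wilson intervals and limits of 3 reads. They also gave the passenger reads per 100 guide reads and the check of replicate pairs against sampling noise. A count model was not run, since too few low values were present to establish unadjusted counts.

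Members and lists were chosen with earlier results of these data known. Named are the 4 guides, the passenger strand of the family, let-7 guides by counts, and the 3 rows most like P1c. limma 3.58.1 in R 4.3.3 (eBayes with trend) was run on the log2 of RPM with 1 added, scaled by median-of-ratios except for the empty vector IP. Fold changes on this scale understate the change of low miRNAs that are above 0 in both groups. Where a miRNA is listed at 0, they depend on the 1 RPM added and can overstate the change. The fit put P2b in the empty vector IP at -7.76, where the limit of 3 reads gives only at least 2.23-fold. Tests covered miRNAs reaching 1 RPM in at least 2 of 3 libraries of either group, and p-values were adjusted over all of them by Benjamini-Hochberg. For strand ratios, limma was run on the log2 ratio of passenger to guide CPM, each with 1 added. Shares and ratios were compared with exact permutation tests (scipy), two-sided, over 16 comparisons, with identical miRNAs counted once. For IP against input, a paired exact test over sign changes of the 3 lysates was also run. The scripts were tested on simulated data.

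IP and input of a number share a lysate. Between AGO2 forms, same-numbered libraries deviated together (all 3 correlations above 0.1) in F182del IP (0.342, 0.177 and 0.113) and in the inputs of F182del (0.206, 0.284 and 0.237), N359H (0.195, 0.127 and 0.129) and the empty vector (0.336, 0.181 and 0.302). Of 36 replicate pairs, the 3 from the empty vector IP were within sampling noise at their low depth and were kept apart since their values were not identical. Alternatives were other pseudocounts, filters and scalings, merged identical miRNAs, 1 fit over the 5 AGO2 groups, the replicate block and each library left out.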

Additional observations from a re-analysis of the deposited data

How the results depend on the processing

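A sign change is counted as a reversal where the value was called before or after it. Counted over all log2 fold changes of the 4 guides, called or not, 29 of 65 changed sign in RPM as deposited and 41 of 351 with 1 library or replicate left out. As a part of the values compared, sign changes were most frequent in RPM as deposited. In RPM as deposited, the guides called for IP against input were 4 in WT-AGO2 and 3 each in F182del and N359H, in place of 0, and called values changed sign for WT-AGO2 P1b (3.61), P2b (3.40) and P1c (3.73) and for F182del P2b (2.77); this scaling keeps the overall gain of miRNA in IP, which median-of-ratios removes by construction. For the empty vector IP, scaling to mature miRNA reads or by median-of-ratios left 1 guide called in place of 4, and P1c changed sign in the former (0.16). The replicate block changed the guides called in D619N IP (1 in place of 0, P2b at adjusted p = 0.0368 from limma), in the D619N input (1 in place of 0, P2b at adjusted p = 0.00194 from limma) and in G604R IP against input (0 in place of 1), and no other count; D619N libraries did not deviate with the same-numbered WT libraries by the rule used. With 1 library left out, the guides called ranged from 0 to 1 in D619N IP (P2b without D619N replicate 3 or WT-AGO2 replicate 2, P3b without WT-AGO2 replicate 3), in the D619N interaction (P3b without replicate 3), in WT-AGO2 IP against input (P3b without IP replicate 3) and in F182del IP against input (P3b without IP replicate 2), and from 3 to 4 in the empty vector IP. The passenger over guide difference of G604R ranged from -9.90 to -5.26. As ratios of the mean family RPM in place of the mean share, the comparisons with WT-AGO2 IP gave 0.657 (F182del), 0.340 (G604R), 1.49 (D619N) and 0.105 (empty vector), those with the WT input 0.771 (F182del), 1.39 (N359H), 3.20 (G604R) and 3.23 (D619N), and those of IP over input 13.98 (WT), 11.9 (F182del), 10.3 (N359H), 1.48 (G604R), 6.45 (D619N) and 1.63 (empty vector). Without the replicate 1 inputs that stood apart, an alternative chosen after seeing the data, the RPM ratios to the WT input were 0.719 (N359H), 0.644 (G604R) and 0.937 (D619N), so that their direction turned, and those of IP over input 19.9, 7.38 and 22.2. The shares had 1.28, 0.956, 1.05 and 0.972, then 0.936, 0.841, 0.846 and 0.860, then 0.755, 1.03, 0.887, 0.854, 0.924 and 0.685. The paired ratio of shares and of P1c over P1b in the replicate block stayed within the spread of replicates in all comparisons. The edgeR alternative was not run, since unadjusted counts could not be established. Depth limits P2b and P3b most: 3 reads correspond to 62.4 to 166 RPM in the empty vector IP.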
